A study of Mus musculus with 3 samples.

Results

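Classical monocytes were taken from 3 droplet-based single-cell RNA libraries of peripheral blood mononuclear cells (PBMCs) of female C57BL/6 mice, 1 library per group. The young group was 8 weeks old, and the aged and aged-GA groups were 16 months old. Aged-GA mice had received glycyrrhizic acid (GA), a saponin of licorice root, at 5 mg/kg every 2 days for 30 days into the tail vein. The labels give no treatment for the young and aged groups, and the study's methods describe phosphate-buffered saline for controls. Young mice had been purchased and aged mice reared in the laboratory, and 5 mice per group are given without a statement on pooling, so each group was treated as 1 sample. Members were chosen by measured UMIs. A barcode was taken as a classical monocyte when it held at least 200 genes, at most 7.5% mitochondrial UMIs and under 20% haemoglobin UMIs (unique molecular identifiers, each counting 1 captured RNA molecule), passed a gate on monocyte genes and held at most 1 UMI of Cd79a and Cd79b and at most 1 of Cd3d, Cd3e and Cd3g. The gate asked for at least 1 UMI of Csf1r, the receptor of the growth factor that sustains monocytes. It also asked for at least 4 UMIs over Ccr2, F13a1, Fn1 and Vcan, and for more of these than of Ace, Treml4, Adgre4 and Cd300e, genes of nonclassical monocytes. It gave 786 cells among 28333 kept cells and 44212 barcodes in all. With 1 library per group, an effect of age or GA cannot be told apart from a difference of the libraries themselves, so no test was run, and 95% intervals cover counting error only.

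Classical monocytes are short-lived blood cells that leave the bone marrow through the chemokine receptor Ccr2 and enter inflamed tissue, where they can become macrophages or antigen-presenting cells. In mice they carry much of the surface protein Ly6C. Some stay in blood, lose Ly6C and become nonclassical monocytes, which patrol the vessel wall and depend on the nuclear receptor Nr4a1. A portion of classical monocytes carries MHC class II, the molecules that present peptides to CD4 T cells, and the lectin Cd209a.

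The label was checked with Ly6c2, which encodes Ly6C and was not in the gate (chr15:75108158-75111970 in mm10). Its level, as UMIs summed over the gated cells and scaled to CPM (UMIs per 1000000 UMIs of the same cells), was 462, 1177 and 864 CPM in classical monocytes of the young, aged and aged-GA groups. In nonclassical monocytes, gated by the mirror rule but with ties of the sums allowed, the level was 13.3, 29.8 and 40.3 CPM, below the classical level in every library. T cells, some of which also express Ly6C, stood at 347 and 458 CPM (aged and aged-GA). Ly6c2 has a near-identical neighbour, Ly6c1, whose reads can be split between the copies, so its level is uncertain. Lyz2, the lysozyme of myeloid cells, was likewise abundant, with 32106, 24528 and 23575 CPM.

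The genes of the gate themselves are given as a description. The summed UMIs of Ccr2, F13a1 (coagulation factor XIII), Fn1 (fibronectin) and Vcan (versican) had medians of 22, 30 and 29 per cell in the young, aged and aged-GA groups. Few cells lay near the limit. In aged mice 2 cells held a sum of 4 and 1 barcode that passed all other limits held 3, and in aged-GA mice 1 cell held 4 and none held 3. Another 9, 73 and 11 barcodes of young, aged and aged-GA mice met every limit but that on Csf1r. The sum of the nonclassical genes was 0 in 373 aged (56.5%) and 69 aged-GA cells (55.6%), whereas 58 and 15 cells held 4 or more UMIs of each set. No barcode of a classical monocyte was shared between classical monocytes of different libraries, although 3 of the aged group's barcodes also occurred in the aged-GA library. The gated cells of the 3 libraries were alike in depth, with a median of 9734, 9976 and 9782 UMIs, and together held 19467, 7002908 and 1389323 UMIs.

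Classical monocytes were far more common in aged than in young blood and less common in aged-GA than in aged blood. They were 2 of 8354 kept cells in young mice (0.0239%, exact binomial 95% interval 0.0029 to 0.0865), 660 of 9136 in aged mice (7.22%, 6.70 to 7.77) and 124 of 10843 in aged-GA mice (1.14%, 0.952 to 1.36). None of these intervals overlapped. The share of aged-GA mice was 6.32-fold below that of aged mice, a log2 ratio of -2.66 (-2.95 to -2.38). Aged over young, the log2 ratio was 8.24 (6.38 to 11.29), and aged-GA over young it was 5.58 (3.69 to 8.64). The young count depended on the limit on Csf1r: with no such limit 11 young, 733 aged and 135 aged-GA barcodes passed (0.132%, 8.02% and 1.25%), and the log2 ratio was 5.93, aged over young, and -2.69, aged-GA over aged.

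Nonclassical monocytes moved in the same direction by a smaller factor. They made up 0.539%, 4.37% and 1.74% of kept cells (young, aged and aged-GA), with a log2 ratio of -1.33 (-1.58 to -1.07), aged-GA over aged. The balance of the monocyte classes therefore differed between the libraries. Classical cells were 2 of 47 gated monocytes in young mice (4.26%, 0.520 to 14.5), 660 of 1059 in aged mice (62.3%, 59.3 to 65.3) and 124 of 313 in aged-GA mice (39.6%, 34.2 to 45.3). There were 0.0444, 1.65 and 0.656 classical cells per nonclassical cell in the same order. The log2 ratio of this number was -1.33 (-1.71 to -0.96), aged-GA over aged, and 5.22 (3.17 to 7.27), aged over young, with intervals by a normal approximation that is rough for 2 young cells. With no limit on Csf1r the second ratio was 2.89. Shares are of recovered cells, and blood counts were not analysed here. The young library also held few neutrophils, with 8 cells in the neutrophil gate against 628 in aged and 366 in aged-GA mice. That gate asked for at least 20 UMIs of S100a8 and S100a9, a UMI of Csf3r and no UMI of Csf1r, under the same B and T cell limits.

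**Figure D1:**
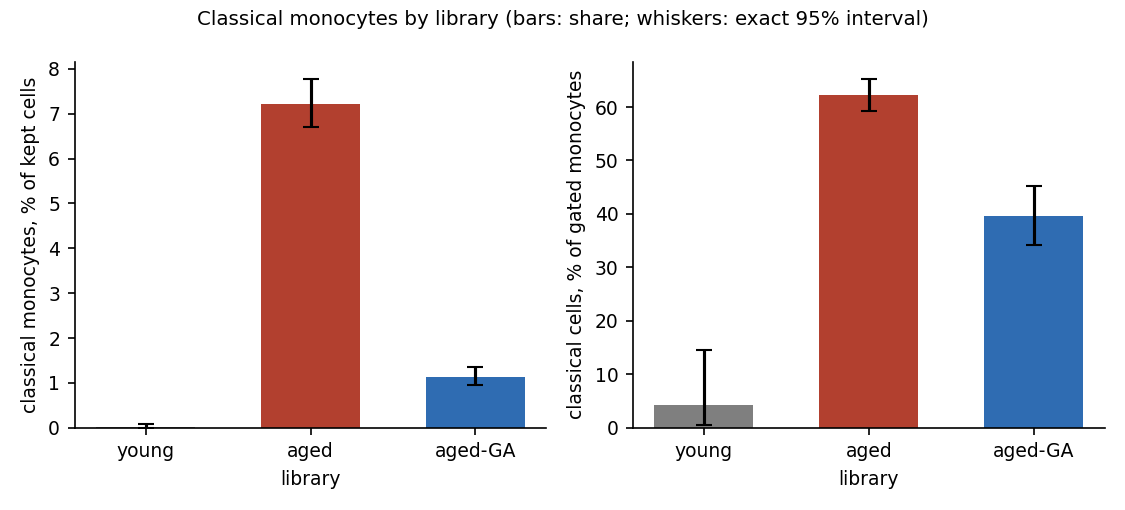
Share of classical monocytes among kept cells (left, in percent) and among gated monocytes of both classes (right, in percent) in each library, with exact binomial 95% intervals as whiskers. The aged library stands highest in both panels, at 7.22% and 62.3%, the aged-GA library lies between, at 1.14% and 39.6%, and the young bars rest on 2 cells.

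Gene levels within classical monocytes were compared between aged-GA and aged mice over the 6679 genes with at least 100 UMIs in the 124 and 660 cells together. The log2 ratio of CPM used a pseudocount of 1 CPM, and its median over all genes was 0.04. Of these genes 134 (2.01%) differed by over 2-fold, 89 (1.33%) higher and 45 (0.674%) lower in aged-GA mice. Cells with many S100a8 and S100a9 UMIs, described below with the neutrophil genes, weighed on this split: without them 52 genes were higher and 57 lower. With no UMI of other lineages allowed (Cd79a, Cd79b, Cd3d, Cd3e, Cd3g, Ncr1, Csf3r, Pf4 and Ppbp), 151 aged and 20 aged-GA cells were left. Only 2273 genes then passed the minimum of UMIs, and 25 of them were higher and 63 lower. Most of these were other genes: 5 of the 25 were among the 89 above and 3 of the 63 among the 45. The genes of each list below are set against these shares.

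The list with the highest median ratio was that of MHC class II genes, which were higher in classical monocytes of aged-GA mice. Of 11 genes on the list, 7 passed the minimum of UMIs, 6 of them were over 2-fold higher, none was over 2-fold lower, and the median log2 ratio was 2.26. These counts and the median include Cd209a, which is not an MHC class II gene and is also on the list of dendritic cell markers. H2-Aa, the alpha chain of I-A (chr17:34282744-34287823), stood at 173 and 998 CPM (aged and aged-GA), a log2 ratio of 2.52 (2.41 to 2.64). H2-Ab1, its beta chain (chr17:34257689-34269419), stood at 188 and 995 CPM, with a log2 ratio of 2.40 (2.30 to 2.52). H2-Eb1, the beta chain of I-E (chr17:34305867-34316674), stood at 138 and 665 CPM, with a log2 ratio of 2.26 (2.14 to 2.40). These chains lie side by side in the major histocompatibility complex, and each was higher in aged-GA mice by a similar factor. Cd74, the invariant chain that guides the complex to endosomes, stood at 710 and 2852 CPM (log2 ratio 2.01, 1.95 to 2.07). Of the genes that exchange peptides on the complex, H2-DMb1 stood at 82.8 and 227 CPM (log2 ratio 1.45) and H2-DMa, the member that stayed under 2-fold, at 239 and 404 CPM (log2 ratio 0.75, 0.62 to 0.90). Cd209a, a lectin receptor, had the highest ratio of the list. It was at 12 and 107 CPM, with a log2 ratio of 3.06 (2.77 to 3.56, on 84 aged and 149 aged-GA UMIs).

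The promoters of H2-Aa, H2-DMb1 and H2-Eb1 hold a common element that the selection of cells did not use, and they are shown because they passed the minimum of UMIs and it was found in them. Sequences are from RefSeq on GRCm38.p6, run 5′ to 3′ on the strand of the gene, and span the 70 bases from 100 to 31 bases before the RefSeq start, at chr17:34287854-34287923 on the minus strand for H2-Aa, chr17:34153091-34153160 on the plus strand for H2-DMb1 and chr17:34305767-34305836 on the plus strand for H2-Eb1. Capitals mark the letters TGATTGG, the inverted CCAAT box known as the Y box of MHC class II promoters.
H2-Aa: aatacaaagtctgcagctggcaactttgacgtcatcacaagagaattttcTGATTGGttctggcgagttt
H2-DMb1: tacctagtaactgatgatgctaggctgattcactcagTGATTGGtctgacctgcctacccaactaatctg
H2-Eb1: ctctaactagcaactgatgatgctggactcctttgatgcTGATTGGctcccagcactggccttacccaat
Searched on both strands, these letters were in the same window of 3.67% of 32851 promoters and in 6 of the 8 list members found in the promoter table (all but Cd74, Ciita and H2-Ab1). The other 3 with these letters, H2-DMb2, H2-Oa and H2-Ob, did not pass the minimum of UMIs. H2-DMa and Cd209a, which were higher in aged-GA mice as well, do not hold them in this window. The match is a description of the letters and says nothing of the factors bound there in these cells.

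MHC class II RNA was unevenly spread among the cells, and the libraries differed in how many cells carried much of it. Summed over H2-Aa, H2-Ab1, H2-Eb1 and Cd74, at least 20 UMIs were in 61 of 660 aged cells (9.24%, 7.14 to 11.7) and in 37 of 124 aged-GA cells (29.8%, 22.0 to 38.7). At least 100 UMIs were in 25 aged (3.79%) and 25 aged-GA cells (20.2%), and no UMI was in 26.4% and 13.7% of cells. Among cells under 20 UMIs, a class cut on these same genes, H2-Aa was at 20.3 and 18.9 CPM (aged and aged-GA), H2-Ab1 at 18.5 and 33.4 CPM, H2-Eb1 at 15.3 and 26.7 CPM and Cd74 at 145 and 187 CPM. The 4 genes made up no more than a few UMIs in most cells of both libraries. Of the young cells, 1 held 160 of these UMIs and the other held 2.

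Cells rich in MHC class II differed from the other classical monocytes of their own library. Ly6c2 was at 657 CPM in the rich and 1239 CPM in the other aged cells, and at 607 and 1004 CPM in aged-GA mice. Chil3, a chitinase-like protein of classical monocytes, was at 668 and 2219 CPM in aged and at 479 and 1818 CPM in aged-GA mice. Ciita, the activator of MHC class II genes, was at 52.5 and 2.9 CPM in aged and at 67.2 and 1.1 CPM in aged-GA mice. Flt3, a growth factor receptor of dendritic cells and their precursors, was at 83.5 and 22.4 CPM in aged and at 71.3 and 23.4 CPM in aged-GA mice. Ly6c2 and Chil3 were thus lower and Ciita and Flt3 higher in the rich cells of both libraries. Cd209a was found in 19 aged cells (2.88%, 1.74 to 4.46) and 20 aged-GA cells (16.1%, 10.1 to 23.8). In those cells Zbtb46, a transcription factor of conventional dendritic cells, was at 8.7 and 12.4 CPM, on only 2 and 3 UMIs. In the cells without Cd209a it was at 0.44 and 0 CPM (3 and 0 UMIs). Clec10a, a lectin of monocytes and dendritic cells, was at 130 and 157 CPM in the cells with Cd209a. Without the cells with Cd209a the log2 ratio of H2-Aa was 2.58. Over the whole list of 10 dendritic cell markers, the summed level was 94.7 and 238 CPM (aged and aged-GA), with Flt3 and Cd209a the most abundant in turn and Xcr1 and Fscn1 at 0 in both. The part of dendritic cells in the result was not tested.

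**Figure D2:**
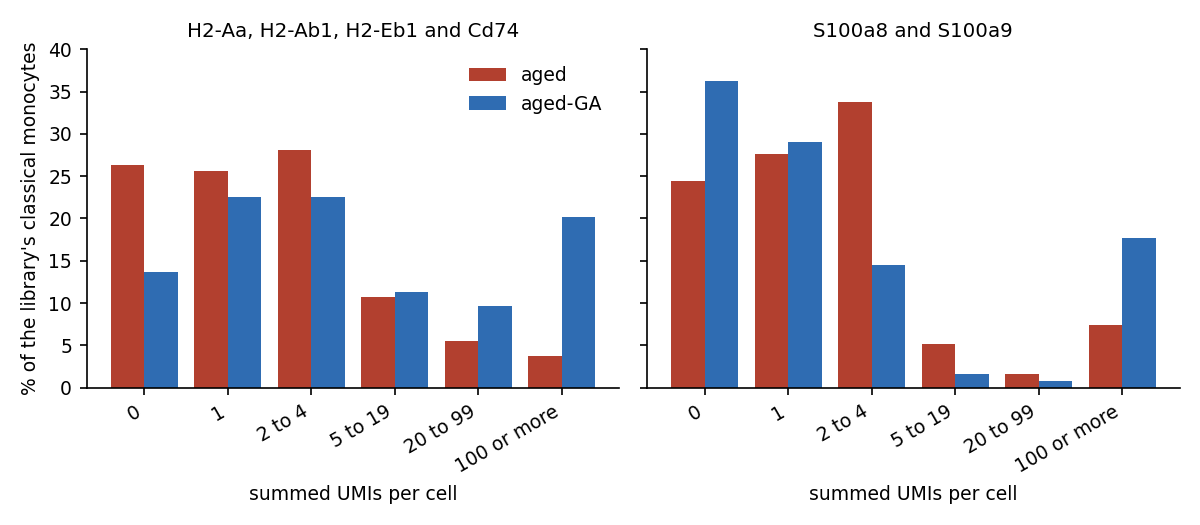
Percent of the classical monocytes of the aged (660 cells) and aged-GA (124 cells) libraries by the number of UMIs per cell, for H2-Aa, H2-Ab1, H2-Eb1 and Cd74 (left) and for S100a8 and S100a9 (right). Cells with 100 or more UMIs make up 3.79% and 20.2% on the left and 7.42% and 17.7% on the right, and the 2 young cells are not drawn.

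The same genes were close to level in nonclassical monocytes. There H2-Aa stood at 169 and 189 CPM (aged and aged-GA) (log2 ratio 0.16), H2-Ab1 at 172 and 169 CPM (log2 ratio -0.02) and H2-Eb1 at 143 and 125 CPM (log2 ratio -0.19). Cd74 was at 920 and 1093 CPM (log2 ratio 0.25). With 1 library per group, the difference between the classes in these ratios was not tested. Free RNA in the droplets was followed in cells that should lack these genes: T cells held H2-Aa at 22.1 and 66.2 CPM (aged and aged-GA), and the neutrophil gate held 41.5 and 249 CPM. After each cell was thinned to 2000 UMIs, H2-Aa was found in 11.4% of aged and 26.6% of aged-GA classical monocytes, against 5.3% and 8.2% of T cells (median depth before thinning 4490 and 5655 UMIs). The part of free RNA in the result was not tested. Genes of B cells, which express MHC class II strongly, were at 318 and 456 CPM over a list of 12, with Ighm (151 and 227 CPM) the most abundant and none of the list at 0. Ms4a1, a defining gene of B cells, was at 2.6 and 2.2 CPM. Without the cells called doublets, the list's median was 2.38.

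**Figure D3:**
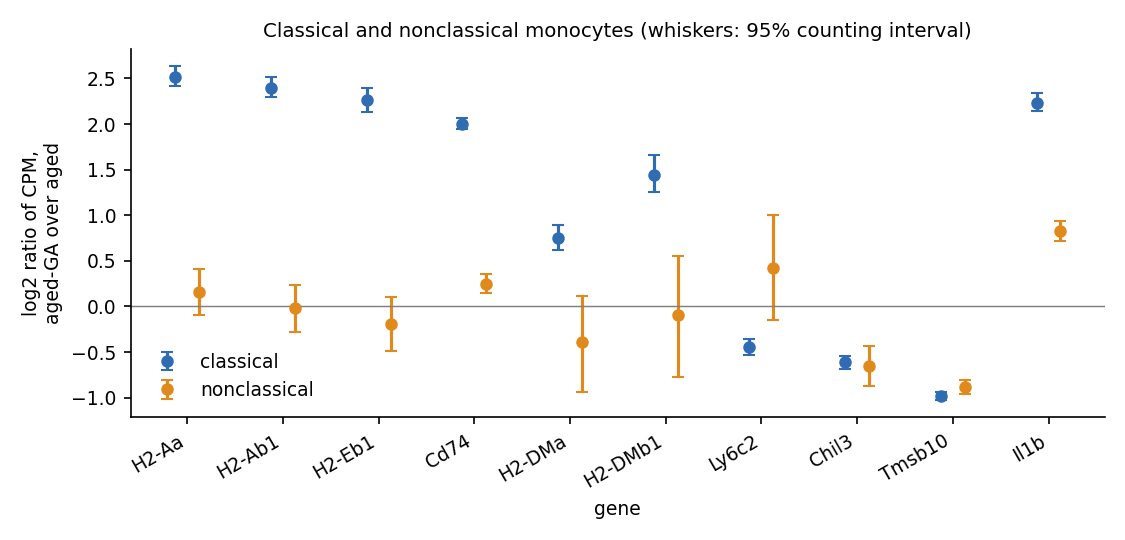
Log2 ratio of CPM, aged-GA over aged, for 10 genes in classical (blue) and nonclassical (orange) monocytes, with 95% counting intervals as whiskers. The 6 MHC class II genes lie between 0.75 and 2.52 in classical monocytes and between -0.39 and 0.25 in nonclassical monocytes, whereas Tmsb10 and Chil3 are lower in both classes.

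Apart from markers of other cells, the list with the next highest median was inflammatory cytokines and chemokines, with 18 of 26 genes measured, 7 over 2-fold higher, none lower and a median log2 ratio of 0.63. Il1b, the precursor of interleukin-1 beta, stood at 251 and 1185 CPM (aged and aged-GA) (log2 ratio 2.24, 2.14 to 2.34). Ptgs2, which makes prostaglandin precursors, stood at 24.4 and 144 CPM (log2 ratio 2.51). Cxcl2, which attracts neutrophils, stood at 344 and 1053 CPM (log2 ratio 1.61). The chemokines Ccl3 (log2 ratio 1.45) and Ccl4 (log2 ratio 1.90), the cytokine Osm (log2 ratio 1.33) and the nuclear regulator Nfkbiz (log2 ratio 1.23) made up the rest. Single cells held much of some of these RNAs: 36% of the Ccl4 UMIs and 29% of the Ccl3 UMIs of aged-GA mice came from 1 cell each. Ccl2, which draws Ccr2-bearing monocytes into tissue, was at 313 and 225 CPM (aged and aged-GA) (log2 ratio -0.47), and Tgfbi, a matrix protein induced by TGF-beta, at 561 and 424 CPM (log2 ratio -0.40). In nonclassical monocytes Il1b was also higher in aged-GA mice, at 679 and 1205 CPM (log2 ratio 0.83), and neutrophils held it at 8811 and 11974 CPM. Without the cells rich in S100a8 and S100a9, the list's median was 0.27, Cxcl2 was at 0.11 and Nfkbiz at 0.51, whereas Il1b was at 2.05, Ptgs2 at 2.69 and Ccl4 at 2.29. In cells with no UMI of other lineages, where few aged-GA UMIs were left, the list's median was -0.12, Cxcl2 was at -0.88 (-1.82 to -0.08, on 13 aged-GA UMIs), Ccl3 at -1.37 (-3.05 to -0.13, on 5) and Osm at -0.97 (-2.66 to 0.29, on 5). Il1b was then at 0.28 (-0.73 to 1.17) and Ccl4 at 0.33 (-1.19 to 1.59), and Ptgs2 was at 2.61.

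S100a8 and S100a9, the alarmins that neutrophils and monocytes store in their cytosol, were higher in aged-GA classical monocytes over all cells, with most of the UMIs in a minority of cells. S100a8 stood at 1922 and 4621 CPM (aged and aged-GA) (log2 ratio 1.27, 1.22 to 1.31), and the log2 ratio of S100a9 was 1.39. The median cell held 1 UMI of S100a8 in the aged library and 0 in the aged-GA library. At least 100 UMIs of both genes were in 49 aged cells (7.42%, 5.54 to 9.70) and 22 aged-GA cells (17.7%, 11.5 to 25.6), whereas 5 to 19 UMIs were in 34 aged and 2 aged-GA cells and 20 to 99 in 11 and 1. In the other cells, a class cut on these same genes, S100a8 was at 164 and 84.4 CPM (aged and aged-GA, log2 ratio -0.95). S100a9 was close to level there, at 81.5 and 85.4 CPM (log2 ratio 0.07, -0.28 to 0.40). T cells held S100a8 at 501 and 890 CPM (aged and aged-GA), above the level in those other classical monocytes.

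Neutrophil genes moved with these cells. Of 15 neutrophil markers 12 were measured, 8 over 2-fold higher in aged-GA mice and none lower, with a median log2 ratio of 1.41. Their summed level was 205, 1180 and 2328 CPM (young, aged and aged-GA), Retnlg was the most abundant in the aged groups (413 and 833 CPM), and none was at 0 there. In cells of at least 100 S100a8 and S100a9 UMIs, Retnlg, a resistin-like protein of neutrophils, was at 3611 and 2987 CPM (aged and aged-GA), against 18.9 and 16.9 CPM in the others. The chemokine receptor Cxcr2 was at 167 and 202 CPM in these cells and at 2.6 and 10.9 CPM in the others. These cells were also deeper, with a median of 13063 and 15446 UMIs against 9833 and 9400. Ly6c2 was at 868 and 861 CPM in these cells (aged and aged-GA), against 1215 and 865 CPM in the others. Without them the median log2 ratio of the neutrophil markers was -0.01, and those of Retnlg (-0.16) and Trem1 (-0.21), a receptor of myeloid cells, were below 0. For the granule proteins Ngp (log2 ratio 2.79) and Camp (log2 ratio 2.73), 78.5% and 84.1% of the aged-GA UMIs came from 1 cell. The doublet caller marked 13 aged (1.97%) and 4 aged-GA classical monocytes (3.23%). The part of neutrophils in these results was not tested.

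**Figure D4:**
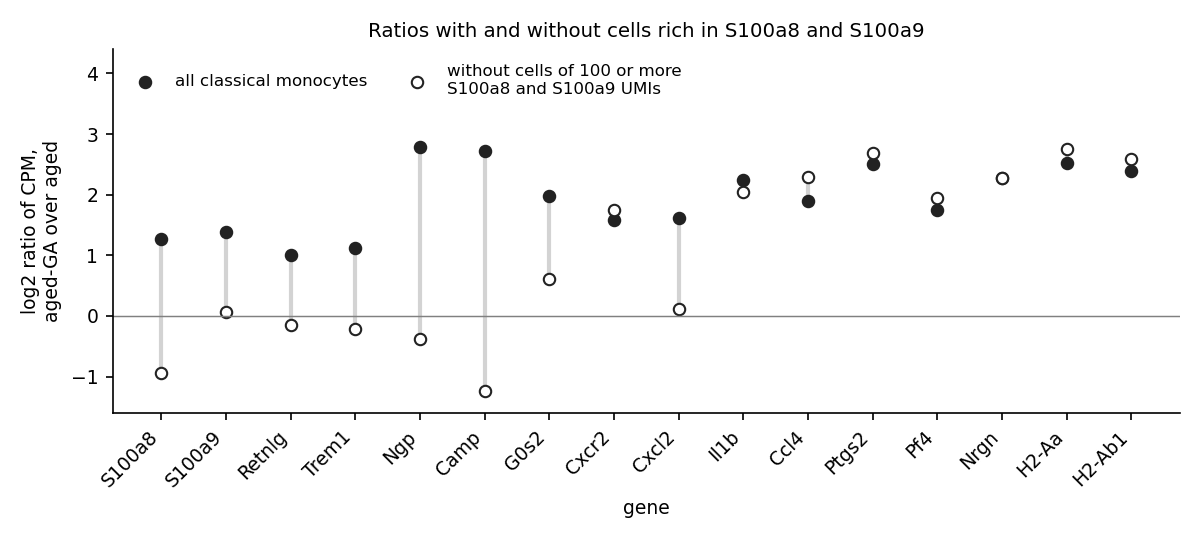
Log2 ratio of CPM, aged-GA over aged, in all classical monocytes (filled points) and without the cells of 100 or more S100a8 and S100a9 UMIs (open points), for 16 genes. S100a8 (1.27 and -0.95) and S100a9 themselves set which cells were left out, and of the other genes Cxcl2 goes from 1.61 to 0.11, whereas H2-Aa (2.52 and 2.75) and Il1b (2.24 and 2.05) hold.

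Platelet genes were higher as well. All 6 measured of 11 markers were over 2-fold higher in aged-GA mice (median log2 ratio 1.76), and their summed level was 182 and 656 CPM (aged and aged-GA). Nrgn, a calmodulin-binding protein found in platelets, was at 40.6 and 200 CPM (log2 ratio 2.27) and Pf4, a platelet chemokine, at 46.0 and 157 CPM (log2 ratio 1.75). After thinning, Pf4 was found in 3.9% of aged and 14.5% of aged-GA classical monocytes and in 1.0% and 1.1% of T cells. Cd9, a membrane protein that platelets carry and one of 15 measured chemokine receptors and adhesion molecules, was at 66.0 and 269 CPM (log2 ratio 2.01). That list had 2 genes over 2-fold higher, Cd9 and Cxcr2, none lower and a median of 0.21. The part of attached platelets in these values was not tested. Of the other marker lists, those of red blood cells summed to 7884 and 6636 CPM (10 genes, Hbb-bs the most abundant), of plasmacytoid dendritic cells to 530 and 501 CPM (9 genes, mostly Bst2), of tissue macrophages to 116 and 214 CPM (10 genes, Adgre1 the most abundant at 109 and 97.9 CPM), of NK cells to 66.3 and 84.2 CPM (9 genes), of T cells to 27.6 and 54.0 CPM (12 genes) and of basophils to 15.3 and 70.5 CPM (8 genes).

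Immediate early genes, which respond to handling and to stimuli within minutes, were shifted by less than 2-fold for the most part. Of 22 measured of 25, 21 had a log2 ratio above 0 (median 0.54), and Dusp2 (1.06) and Egr1 (1.02, and -2.05 on 3 aged-GA UMIs in cells with no UMI of other lineages) were past 2-fold. Junb stood at 861 and 1413 CPM (aged and aged-GA) (log2 ratio 0.71), and in nonclassical monocytes its log2 ratio was 0.31. Glucocorticoid-responsive genes had a median of 0.37 over 16 of 20, with the decoy receptor Il1r2 over 2-fold higher (1.39) and the metal-binding Mt1 over 2-fold lower (354 and 135 CPM (aged and aged-GA), log2 ratio -1.39). In cells with no UMI of other lineages Mt1 was at -0.15 (-0.60 to 0.27) and Il1r2 at 0.66, and neither was past 2-fold. Tsc22d3, a classical target of the glucocorticoid receptor, stood at 182 and 275 CPM (log2 ratio 0.59). Interferon-stimulated genes had a median of -0.21 over 47 of 49, none past 2-fold, 33 of them below 0. Ifi27l2a, the gene of that list with the highest level, stood at 5145 and 3080 CPM (log2 ratio -0.74).

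Genes of the respiratory chain leaned to lower levels in aged-GA mice. Of 32 nuclear-encoded genes, all measured, none was past 2-fold, but 29 were below 0 and the median was -0.45. Cox5b, a subunit of cytochrome c oxidase, stood at 659 and 402 CPM (aged and aged-GA) (log2 ratio -0.71), and in nonclassical monocytes its log2 ratio was -0.70. The 13 genes of the mitochondrial genome leaned the other way, with a median of 0.35, 9 above 0 and mt-Atp8 over 2-fold lower (log2 ratio -1.42). The mt-Co3 gene, also a subunit of cytochrome c oxidase, stood at 2520 and 4134 CPM (log2 ratio 0.71). In T cells Cox5b stood at 389 and 289 CPM, mt-Co3 at 3531 and 6331 CPM and mt-Atp8 at 297 and 107 CPM (aged and aged-GA), each differing in the same direction as in classical monocytes. The median mitochondrial share of a classical monocyte was 2.04% of UMIs in the aged and 2.62% in the aged-GA library. The part of library quality in these values was not tested.

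Genes that mark classical monocytes but were not in the gate were close to level between the aged groups. Of 24 measured of 25, Clec4d, a lectin receptor, was over 2-fold higher in aged-GA mice (log2 ratio 1.08, and 0.25 without the cells rich in S100a8 and S100a9), none was over 2-fold lower and the median was -0.06. Ly6c2 had a log2 ratio of -0.45 (-0.53 to -0.36), Chil3 -0.61 (2054 and 1344 CPM), and Plac8 -0.25. Cd14, a co-receptor for lipopolysaccharide, stood at 350 and 400 CPM (log2 ratio 0.19). Tmsb10, an actin-binding peptide, had the lowest ratio of the list at -0.99 (7066 and 3569 CPM). It was also lower in nonclassical monocytes (log2 ratio -0.88), in T cells (8674 and 5796 CPM) and in B cells (3745 and 2328 CPM). Nonclassical monocyte genes outside the gate had a median of 0.19 over 15 of 18, with none past 2-fold.

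Regulators and receptors of monocytes showed few differences past 2-fold. Myeloid transcription factors had a median of 0.25 over 20 of 23 and none past 2-fold, with Klf4, which monocytes need to form, at 213 and 303 CPM (aged and aged-GA) (log2 ratio 0.51). Pattern recognition receptors and adaptors had a median of -0.03 over 19 of 27, with Clec4d over 2-fold higher. Fc, scavenger and phagocytic receptors had a median of -0.12 over 17 of 22, with Trem1 over 2-fold higher (and at -0.70, -3.07 to 0.92, on 3 aged-GA UMIs in cells with no UMI of other lineages). Fcgr1, the high-affinity receptor for IgG, stood at 164 and 105 CPM (log2 ratio -0.64). Among S100 and granule proteins the median was -0.17 over 16 of 20, with S100a8, S100a9, Ngp and Camp over 2-fold higher. Prtn3, a serine protease made at the precursor stage, was the single member over 2-fold lower, at 171 and 64.1 CPM (log2 ratio -1.40, -1.74 to -1.10, and -0.90, -1.68 to -0.22, in cells with no UMI of other lineages). After thinning it was found in 28.1% of aged and 11.3% of aged-GA classical monocytes and in 0.2% of aged T cells. Summed over 10 markers of stem and progenitor cells the level was 219 and 120 CPM, most of it Prtn3, with Mpo, Elane and Ctsg at 0 in aged-GA mice.

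Lists of metabolism and survival were likewise close to the median of all genes. Medians were 0.05 over 18 of 19 glycolysis genes, with the glucose transporter Slc2a3 over 2-fold higher (1.69), and -0.08 over 23 of 25 antioxidant genes, with the cystine transporter Slc7a11 over 2-fold higher (1.87, and 0.09 on 2 aged-GA UMIs in cells with no UMI of other lineages). They were -0.09 over 17 of 25 lysosomal proteases and cystatins, 0.14 over 16 of 20 survival and apoptosis genes and 0.22 over 14 of 20 CDK inhibitors and p53 targets, none past 2-fold in any of these lists. Cell cycle genes were scarce, with 7 of 22 measured, a median of -0.01 and Ube2c, a ubiquitin ligase of mitosis, over 2-fold lower (log2 ratio -1.25). In cells with no UMI of other lineages Ube2c was at -0.59 (-2.96 to 1.04, on 3 aged-GA UMIs). Complement and coagulation genes had a median of -0.01 over 16 of 25. Of these C1qb, a chain of the first complement component, was higher (log2 ratio 3.96), with 63.6% of its aged-GA UMIs in 1 cell. C4b (log2 ratio -3.35, -9.84 to -2.02, on 1 aged-GA UMI) and Pros1, the anticoagulant protein S (log2 ratio -1.37), were over 2-fold lower, C4b with 16.6 and 0.7 CPM (aged and aged-GA).

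**Figure D5:**
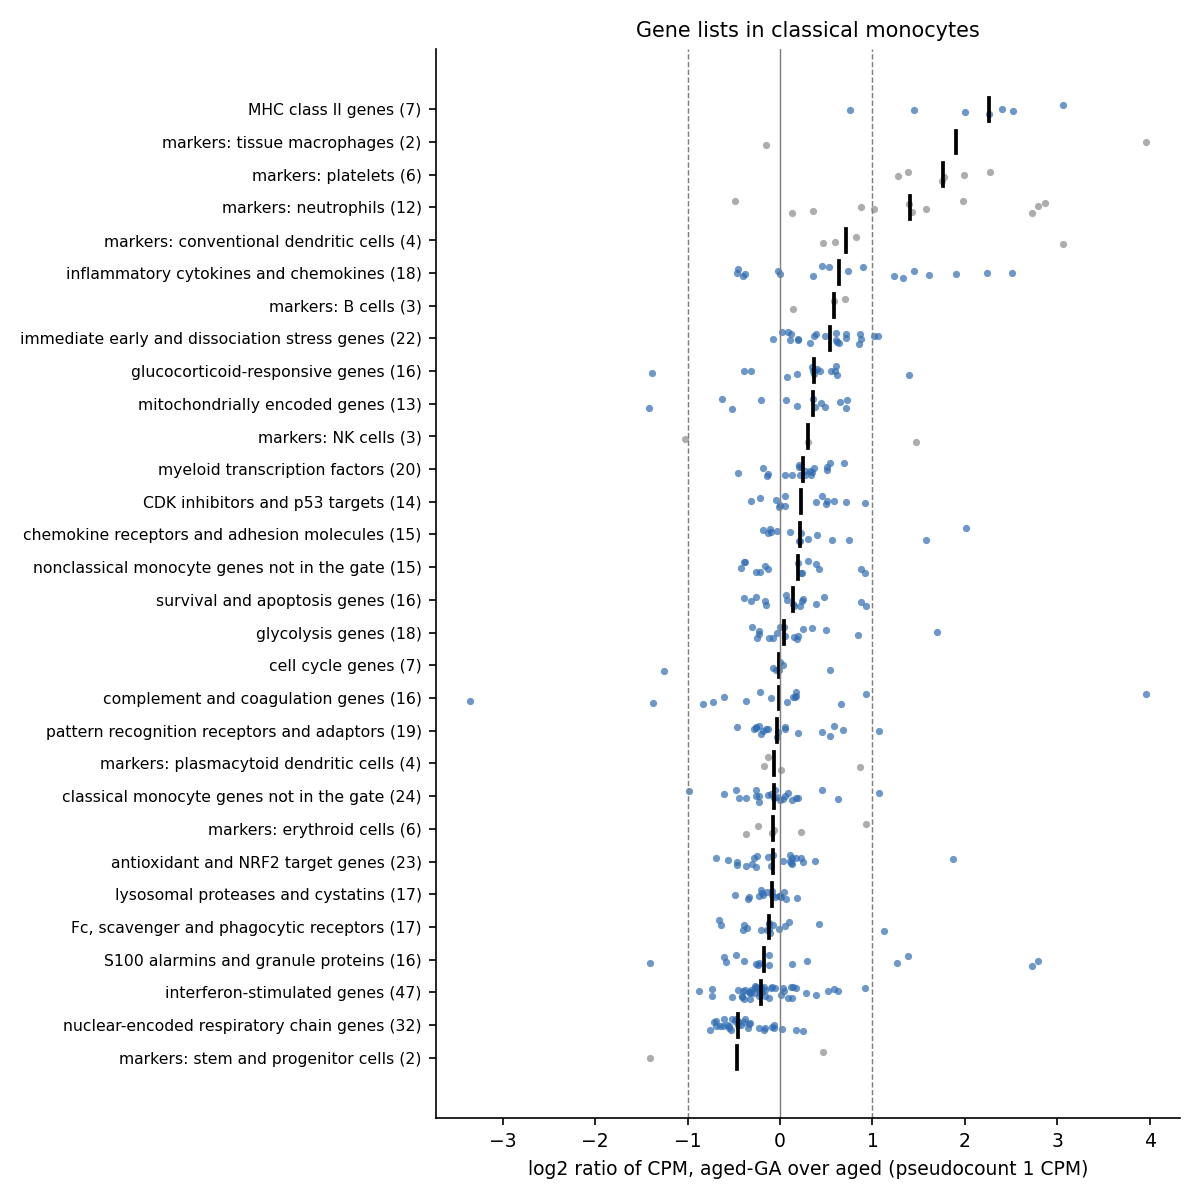
Log2 ratio of CPM, aged-GA over aged, of every measured gene of each list in classical monocytes (points, with the number measured in brackets), with the list's median as a black bar and dashed lines at 2-fold. MHC class II genes have the highest median (2.26), and nuclear-encoded respiratory chain genes lie mostly below 0 with a median of -0.45; lists of markers of other cells are in grey.

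Beyond the lists, genes were ranked by ratio among those with at least 50 CPM in either library. Genes of the gate, of haemoglobin, ribosomal proteins, antigen receptors and the mitochondrial genome and unnamed gene models were left out of the ranking. Among the 12 highest was Acod1, which makes itaconate and is on the list of neutrophil markers (10.1 and 79.9 CPM, log2 ratio 2.86). Without the cells rich in S100a8 and S100a9 Acod1 was at 1.41 (0.50 to 2.69, on 12 aged-GA and 24 aged UMIs). Also among the 12 were Basp1, a protein of the inner membrane face (log2 ratio 2.50), and Ctla2a, an inhibitor of cathepsin-like proteases (71.8 and 366 CPM, log2 ratio 2.33). Csf1, the ligand of Csf1r, was among them too (10.7 and 58.3 CPM, log2 ratio 2.34), but with 0 aged-GA and 7 aged UMIs left in cells with no UMI of other lineages. The others were C1qb, Cd209a, Ngp, Camp, H2-Aa, H2-Ab1, Ptgs2 and Nrgn, given above. The lowest ratios under the same limits were smaller in size. They were led by Prtn3, Mt1 and the zinc importer Slc39a1 (69.8 and 28.1 CPM, log2 ratio -1.28, and -0.45 in cells with no UMI of other lineages), and by Ifi206, of the interferon-inducible family of DNA sensors (-1.02), Myof, a membrane repair protein (-1.01), and Cd302, a lectin receptor (237 and 118 CPM). Tmsb10, Hopx, Bloc1s1, the respiratory chain subunit Ndufb2 and Mgst3 followed, with log2 ratios between -0.99 and -0.79. In cells with no UMI of other lineages Bloc1s1 was at 0.09 (-1.02 to 1.05). Ifi206 was then at -3.23 and Mgst3 at -3.18, each on 1 aged-GA UMI.

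Against young mice the gene levels rest on 2 cells with 19467 UMIs, too few to describe the young state. The list of tissue macrophage markers summed to 1387 CPM (914 to 2018, 27 UMIs) in the young cells, against 116 CPM in aged mice. C1qa, C1qb and C1qc, the chains of C1q that macrophages make, were at 514, 514 and 308 CPM, each in 1 of the 2 young cells. The part of macrophages in the values below was not tested. Aged over young, 3981 (64.2%) of 6202 genes were past 2-fold, 3043 (49.1%) higher and 938 (15.1%) lower, shares set largely by genes with few or no young UMIs. For 40 of the higher and 161 of the lower genes the 95% counting interval also lay off 0. Dusp2, a phosphatase induced on stimulation, stood at 616 and 47.7 CPM (young and aged) (log2 ratio -3.66, -4.52 to -2.72), Cxcl2 at 2774 and 344 CPM with 94.4% of the young UMIs in 1 cell, and Nfkbiz at 668 and 66.4 CPM. Aif1, an actin-binding protein of macrophages, was at 565 and 56.8 CPM, with 81.8% of the young UMIs in 1 cell. Gadd45b, a stress gene, was at 514 and 61.1 CPM, with 60% of the young UMIs in 1 cell. Hp, the haemoglobin-binding haptoglobin, was at 154 and 1071 CPM (young and aged) (log2 ratio 2.79, 1.25 to 5.07). S100a8 and S100a9 had 0 UMIs in the young cells, which allows up to 154 CPM (3 UMIs), against 1922 and 1845 CPM in aged mice. In the 611 aged cells with under 100 UMIs of both genes the levels were 164 and 81.5 CPM, close to or below that limit. Of MHC class II genes, 6 were measured and 6 were over 2-fold lower in aged than in young mice, where 1 cell held 23 of 23 UMIs of H2-Aa. With no limit on Csf1r (11 young cells) the list's median was -0.09, Cxcl2 was at -1.41 and Dusp2 at -4.90. Aged-GA over young, 713 (33.6%) of 2124 genes were past 2-fold, 515 (24.2%) higher and 198 (9.32%) lower, and 44 and 81 of these had an interval off 0. Mt1 was at 1592 and 135 CPM (young and aged-GA), with 93.5% of the 31 young UMIs in 1 cell. These comparisons share libraries with that of aged-GA and aged mice.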

How the data were processed

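PBMCs of 3 groups of mice were measured by 3′ droplet single-cell RNA sequencing, 1 library per group. The authors deposited raw UMI counts per gene (32285 genes) and barcode, unnormalized. The file headers name Cell Ranger 5.0.0, and the submitters' processing notes name mm10. Libraries held 58894294 (young), 82260961 (aged) and 98155671 (aged-GA) UMIs.

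Cells were gated on raw counts as described with the results. UMIs of gated cells were summed per library and scaled to CPM, and log2 ratios used a pseudocount of 1 CPM over genes with at least 100 UMIs in both libraries together, without the 14 genes of the gate. Nonclassical monocytes held at least 4 UMIs of Ace, Treml4, Adgre4 and Cd300e, and at least as many of these as of the classical genes. B and T cells held at least 2 UMIs of their own gate genes, none of the other class's gate genes and none of Csf1r. Neutrophils held at least 20 UMIs of S100a8 and S100a9, a UMI of Csf3r and none of Csf1r. The limits on B and T cell genes were the same for neutrophils as for monocytes. Cells were thinned to 2000 UMIs for shares of cells with a UMI. Intervals are exact binomial or Poisson at 95%, except those on classical per nonclassical cells, which use a normal approximation on the log scale, and a count of 0 allows 3 UMIs (a one-sided limit). With 1 library per group no p-value was computed. Doublets were called with Scrublet in scanpy 1.11.5 at a score of 0.2 in each library (4.68%, 4.32% and 4.94% of kept cells), since the automatic limit marked 0.0922% of aged-GA cells, and were left in except in an alternative.

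Members and gene lists were chosen with earlier results of these data known. Named genes were those of the gate and lists and the 12 highest and 12 lowest ratios (5 and 5 against young) among genes with at least 50 CPM in one library (against young also at least 10 young UMIs, counted or reached at the other library's level), without haemoglobin, mitochondrial, ribosomal protein, immunoglobulin, T-cell receptor and unnamed genes. One of the genes this gives is not reported here. Limits on UMIs per cell (20 and 100) were set after seeing the data. Scripts were tested on simulated data and ran in Python 3.11.15 with numpy 2.4.6, scipy 1.17.1 and pandas 2.3.3. Gene positions are from GENCODE on GRCm38. Alternatives changed the filters on cells, the gate, the doublets, the depth, the scaling, the pseudocount, the filter on genes and the denominator.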

Additional observations from a re-analysis of the deposited data

How the results depend on the processing

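With 1 library per group no replicate could be left out. No paired analysis was possible because each group has 1 library. Of 99 recomputed values of shares, counts of genes and the MHC class II median, 86 stayed within the limit set for each kind. For shares and their ratios this limit was the counting interval, and for counts of genes it was 1.5-fold. For the MHC class II median it was the range of the 7 gene ratios (0.75 to 3.06). That range is wide and is not a counting error, so staying within it says little of how stable the median was. Requiring no UMI of Cd79a, Cd79b, Cd3d, Cd3e, Cd3g, Ncr1, Csf3r, Pf4 or Ppbp left 151 aged, 20 aged-GA and 1 young cell, since Csf3r was found in 66.7% of aged classical monocytes. The log2 share ratio, aged-GA over aged, was then -3.16, and that of classical per nonclassical cells -1.84. This limit was set on classical cells only, and nonclassical cells stayed at 399 in aged and 189 in aged-GA mice. With no limit on Csf1r, chosen after seeing the data, the log2 ratio, aged over young, was 5.93 for the share and 2.89 for classical per nonclassical cells. Genes past 2-fold, aged-GA over aged, were 134 of 6679 tested. They were 88 of 2273 with no UMI of other lineages and 63 of 6679 with a pseudocount of 10 CPM (55 higher, 8 lower). They were 731 of 10642 with at least 10 UMIs, 1004 of 14508 with no filter and 47 of 2267 in thinned cells (20 higher, 27 lower). With no UMI of other lineages 5 higher and 3 lower genes were also past 2-fold in the main result, and in thinned cells 14 and 5. Aged over young, 3981 of 6202 tested genes were past 2-fold. With no UMI of other lineages they were 893 of 2055, with at least 10 UMIs 8107 of 10328, with no filter 8459 of 14176 and in thinned cells 1396 of 1939. Median-of-ratios scaling moved the median of all genes, aged over young, from 0.87 to 1.28, with 3278 higher and 503 lower.

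With no UMI of other lineages, log2 ratios, aged-GA over aged, turned to -1.93 for Camp, -1.37 for Ccl3, -1.93 for Clec1b, -2.57 for Csf1, -0.88 for Cxcl2, -0.77 for Cxcr2, -2.05 for Egr1, -0.77 for Mmp9, -2.38 for Ngp, -0.97 for Osm, -1.11 for Retnlg, -2.14 for S100a8, -0.33 for S100a9 and -0.70 for Trem1, and the median of MHC class II genes was 3.00. Of these Camp, Clec1b, Csf1, Cxcr2, Mmp9 and Ngp had 0 aged-GA UMIs left against 1 to 7 aged UMIs, so their values are set by the pseudocount and show no reversal. Retnlg, Egr1, Trem1, Ccl3, Osm, S100a8, S100a9 and Cxcl2 rested on 1 to 13 aged-GA UMIs, and the counting interval lay below 0 for Ccl3, Cxcl2, Egr1 and S100a8. Slc7a11 (0.09), Mt1 (-0.15), Slc39a1 (-0.45), Prtn3 (-0.90), Il1b (0.28), Ccl4 (0.33), Nfkbiz (0.41), Il1r2 (0.66), Clec4d (0.98), Klrk1 (0.95), G0s2 (0.35) and Ube2c (-0.59) were no longer past 2-fold, and Bloc1s1 went from -0.82 to 0.09. The split was 25 higher and 63 lower. Without the cells of at least 100 S100a8 and S100a9 UMIs, chosen after seeing the data as was the limit on Cd209a, the median of neutrophil markers was -0.012, Camp was -1.23 and Ngp -0.38 (on 1 and 2 aged-GA UMIs), Retnlg -0.16, S100a8 -0.95 and Trem1 -0.21. Gadd45b, aged over young, turned to 5.86 in thinned cells, where no young UMI was left and the value depends on the pseudocount. The cause of these turns was not tested. The median of MHC class II genes, aged-GA over aged, stayed above 0 under every alternative run, lowest at 1.48 with at least 10 UMIs or no filter. The young comparison is limited by the 2 cells in the gate.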
